A study of Homo sapiens with 8 samples.

Results

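TMEM229B, LAT2 and IL17REL are 3 genes that lie at regions called open only after interferon gamma (IFNγ) in U2OS, a cell line from a human osteosarcoma. They were chosen on the measured values themselves. Among all regions with a FAIRE-seq peak in each of the 4 IFNγ libraries and in none of the 4 untreated libraries, the regions nearest to these genes stood at rank 1 (TMEM229B), 2 (LAT2) and 4 (IL17REL) by mean peak strength. Every peak in the gene bodies or within 10 kb of them was then collected from the 8 lists. This gave 50 of 195897 peaks, which formed 16 of 52105 regions.

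FAIRE-seq isolates DNA that is not wrapped in nucleosomes, and peaks therefore mark open chromatin. Libraries were made from 2 wild-type (WT) clones, WT_4 and WT_5, and from 2 clones in which ZBTB48 was knocked out (KO), KO_C5 and KO_D2. ZBTB48 is a zinc finger protein that binds telomeric repeats and some promoters. Every clone was profiled untreated and after exposure to 250 U/ml IFNγ, which makes 4 groups of 2 libraries. The labels give 24 h of exposure, whereas the text of the study names a longer one as well, so the duration is uncertain. All cells are of the same line, every genotype is represented by only 2 clones, and peak lists cannot show whether ZBTB48 itself is disrupted.

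IFNγ binds a cell surface receptor formed by IFNGR1 and IFNGR2 and activates the kinases JAK1 and JAK2. The response acts on genes through the gamma-activated sequence (GAS), and factors of the IRF family bind elements built from repeated GAAA. LAT2, also called NTAL or LAB, is a transmembrane adaptor that carries signals from receptors of B cells and mast cells. IL17REL encodes a protein similar to the interleukin 17 receptor E, and TMEM229B encodes a membrane protein with several transmembrane segments.

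The sequences below are those under the summits of the 3 gained regions and of a region in TMEM229B whose summit differed with IFNγ. They are shown because the motif content of the 3 genes differed. All are on the plus strand of GRCh38, from the reference genome. Each window holds the 300 bases around the strongest summit, except that the first exon was left out at the TMEM229B gained region. Capitals mark matches to an IRF core (GAAA, any 2 bases, GAAA), a GAS (TTCNNNGAA) or an AP-1 site (TGANTCA), searched on both strands.
TMEM229B gained region, chr14:67488722-67488927: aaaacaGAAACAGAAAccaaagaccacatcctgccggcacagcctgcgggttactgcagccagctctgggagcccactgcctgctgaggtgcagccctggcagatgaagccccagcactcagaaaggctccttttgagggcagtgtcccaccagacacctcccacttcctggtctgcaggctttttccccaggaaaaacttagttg
LAT2 gained region, chr7:74206611-74206910: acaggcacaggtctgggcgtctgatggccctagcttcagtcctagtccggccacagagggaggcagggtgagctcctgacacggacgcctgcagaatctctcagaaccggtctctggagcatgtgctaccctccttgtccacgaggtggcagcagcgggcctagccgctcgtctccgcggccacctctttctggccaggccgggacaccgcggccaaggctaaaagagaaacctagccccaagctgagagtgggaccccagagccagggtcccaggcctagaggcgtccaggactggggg
IL17REL gained region, chr22:50017023-50017322: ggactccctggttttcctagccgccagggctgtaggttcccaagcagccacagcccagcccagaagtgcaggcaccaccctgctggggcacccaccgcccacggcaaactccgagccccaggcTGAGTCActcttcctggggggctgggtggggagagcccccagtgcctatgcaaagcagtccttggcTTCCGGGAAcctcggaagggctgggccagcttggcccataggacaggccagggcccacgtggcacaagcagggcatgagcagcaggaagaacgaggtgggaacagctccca
TMEM229B upstream region, chr14:67514775-67515074: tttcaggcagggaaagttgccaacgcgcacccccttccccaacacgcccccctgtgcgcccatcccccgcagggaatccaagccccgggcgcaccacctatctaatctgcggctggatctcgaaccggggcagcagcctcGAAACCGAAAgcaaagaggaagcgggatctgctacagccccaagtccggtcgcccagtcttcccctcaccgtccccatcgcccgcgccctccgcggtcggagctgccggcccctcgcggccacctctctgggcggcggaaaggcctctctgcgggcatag

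The TMEM229B window held 1 IRF core match, GAAACAGAAA at chr14:67488728-67488737. It began 7 bp upstream of the annotated start of TMEM229B and lay 2.5 to 44.5 bp from the summits of the 4 IFNγ libraries. Of all 52105 regions, 4.10% held an IRF core in the same 300 bp, and of the 66 gained regions 13.6% did. The IL17REL window held a GAS match, TTCCGGGAA at chr22:50017212-50017220, which lay 44 to 94 bp from the summits. It also held an AP-1 match, TGAGTCA at chr22:50017146-50017152, which lay 3 to 27 bp from them. A GAS match occurred in 6.88% of all regions and 10.6% of gained regions, and an AP-1 match in 19.7% and 33.3%. The LAT2 window held none of these 3 motifs. Neither the telomere repeat TTAGGG (6.80% of all regions) nor the control hexamer GTGAGT (16.4%) occurred in any of the 4 windows, also searched on both strands. A match describes letters only and does not show that a factor was bound.

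Peaks were gained with IFNγ at 1 region in each of the 3 loci. Over the whole series 66 of 52105 regions (0.127%) had a peak in all 4 IFNγ libraries and in no untreated library, and 63 of 19970 protein-coding genes (0.315%) had such a region in the gene body or within 10 kb. Because the genes were chosen for this pattern, it is given as a description without a test. The strength of a peak is given as its fold enrichment and as the percentile of its −log10 p among all peaks of the same list. Fold enrichment is the ratio of fragments at the summit to the local background, with 1 added to both. A missing peak means that the signal did not reach the threshold of the peak caller, and does not show closed chromatin. At the background of each library the lowest callable pileup was 5 or 6 fragments at the summit, and it is higher where the local background is higher, as it was at these 3 regions (1.136 to 5.10 fragments). The mean percentile over the 4 IFNγ libraries was 61.5 for TMEM229B, 48.6 for LAT2 and 45.7 for IL17REL. Just outside the choice, at rank 6, the region at SP100 had a mean percentile of 43.99. Ranks 3 and 5, at 47.1 and 45.5, lay nearest to the starts of the unnamed genes ENSG00000258878 and ENSG00000236319.

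**Figure D1:**
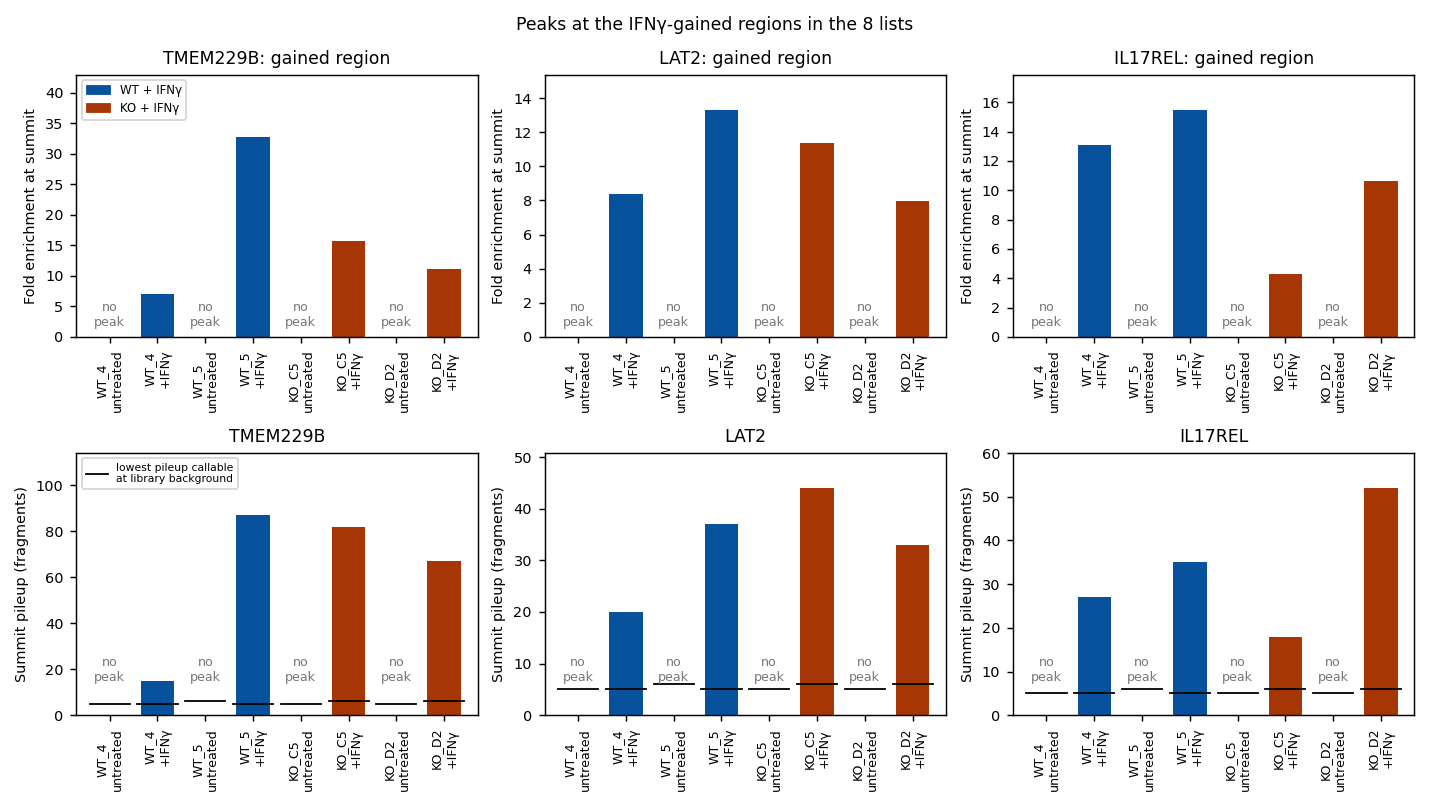
Peaks at the gained regions of TMEM229B, LAT2 and IL17REL in the 8 libraries, with fold enrichment (a ratio) in the upper row and summit pileup (fragments) in the lower row. Each bar is 1 library, blue for WT and brown for KO, and black lines mark the lowest pileup callable at the background of the library, which is below the limit at a higher local background. No untreated library has a bar, and the bar for TMEM229B in WT_5 with IFNγ, at a fold of 32.7, has the highest fold, on axes that are scaled for each gene.

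The TMEM229B gained region, chr14:67488136-67488928, overlapped the first exon of the MANE Select transcript of this minus-strand gene (chr14:67447084-67533739, start at 67488721). In longer transcripts the same place is inside the gene. The full extent of the region came from WT_5 with IFNγ, whose peak was 793 bp wide. The peaks of WT_4, KO_C5 and KO_D2 with IFNγ were 240, 314 and 295 bp wide and also held the start. With IFNγ the fold enrichment was 7.002 in WT_4, 32.7 in WT_5, 15.8 in KO_C5 and 11.2 in KO_D2. The corresponding percentiles were 26.0, 82.6, 70.4 and 67.1. WT_4 was the weakest library by both measures, and WT_5 the strongest. The summit pileup was 15, 87, 82 and 67 fragments over a local background of 1.29, 1.69, 4.26 and 5.10 fragments. The KO clones thus reached pileups near that of WT_5 over a higher background. The 4 summits lay 14 to 56 bp upstream of the start and within 42 bp of each other. The median range of summits over all 14200 regions with a peak in the 4 IFNγ libraries was 41.5 bp (quartiles 27 and 69 bp).

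The LAT2 gained region was at chr7:74206597-74206880, in a plus-strand gene that spans chr7:74199652-74229834. It lay in the first intron of a long transcript that begins at 74199652, and its summits were 3246 to 3279 bp upstream of the MANE Select start at 74210006. Fold enrichment was 8.35 in WT_4, 13.3 in WT_5, 11.4 in KO_C5 and 7.96 in KO_D2, all with IFNγ. Percentiles were 35.0, 61.4, 53.4 and 44.4, and summit pileups were 20, 37, 44 and 33 fragments. This was the most even of the 3 regions in fold enrichment, with WT_5 highest, KO_D2 lowest and WT_4 close to KO_D2. The summits of the 4 libraries lay within 33 bp of each other, and peak widths ran from 224 to 273 bp.

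The IL17REL gained region, chr22:50016972-50017404, lay outside the gene. IL17REL is on the minus strand at chr22:49991811-50012765, and the summits were 4357 to 4407 bp upstream of its start. TTLL8 also reaches into the 10 kb on either side of IL17REL, and whether the gained region lies in TTLL8 was not examined. Fold enrichment with IFNγ was 13.1 in WT_4, 15.5 in WT_5, 4.30 in KO_C5 and 10.6 in KO_D2. Percentiles were 49.8, 62.7, 9.53 and 60.8. KO_C5 was low by both measures, with 18 fragments at the summit against 27, 35 and 52 in WT_4, WT_5 and KO_D2. When every list was cut to the 16730 strongest peaks, the length of the shortest list, the KO_C5 peak dropped out and this region no longer met the definition of a gained region, whereas those of TMEM229B and LAT2 did. The summits lay within 50 bp of each other.

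The values of WT and KO clones with IFNγ are set side by side as a description, since the choice of the genes asked for a peak in all of these libraries and used their mean. Fold enrichment at TMEM229B averaged 19.9 ± 18.2 for WT and 13.5 ± 3.27 for KO (SD of 2 clones each). At LAT2 it was 10.8 ± 3.51 and 9.66 ± 2.40 (SD of 2 clones each). These differences were smaller than the spread between WT clones. At IL17REL the values were 14.3 ± 1.68 and 7.45 ± 4.45 (SD of 2 clones each), and both WT clones were above both KO clones. The same order was seen at 20 of the 66 gained regions (30.3%). The direction depended on the measure. WT minus KO was −14.5 percentile points and −23.5 fragments of pileup at TMEM229B, −0.663 points and −10 fragments at LAT2, and 21.1 points but −4 fragments at IL17REL. Pileup is a count that is not corrected for depth. With IFNγ the library background was 0.621 and 0.770 fragments in WT_4 and WT_5, and 0.906 and 1.08 in KO_C5 and KO_D2. The part of depth in the pileup differences was not tested. At TMEM229B the fold difference without WT_5 was −6.46. At LAT2 the fold difference was −1.31 without WT_5 and −0.522 without KO_D2.

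The other peaks of the 3 loci were compared with the gained ones. In the TMEM229B locus 7 regions were found, 1 gained, 2 with a peak in all 8 libraries and 4 with a peak in a single library. The LAT2 locus had 4 regions and the IL17REL locus 5, none of them present in all 8 libraries. In the whole series 11551 of 52105 regions (22.2%) were constant in this sense. No region of the 3 loci was lost with IFNγ. The lists held 7 and 6 peaks of these loci in untreated WT_4 and WT_5, 2 and 3 in untreated KO_C5 and KO_D2, and, with IFNγ, 6, 12, 7 and 7 in the same order. WT_5 with IFNγ, which had the most, is also the longest list, with 37533 peaks against 16730 to 29567 in the others. By the choice of the genes, each IFNγ count includes the peaks of the 3 gained regions, and no untreated count does. The part of list length in these counts was not tested.

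**Figure D2:**
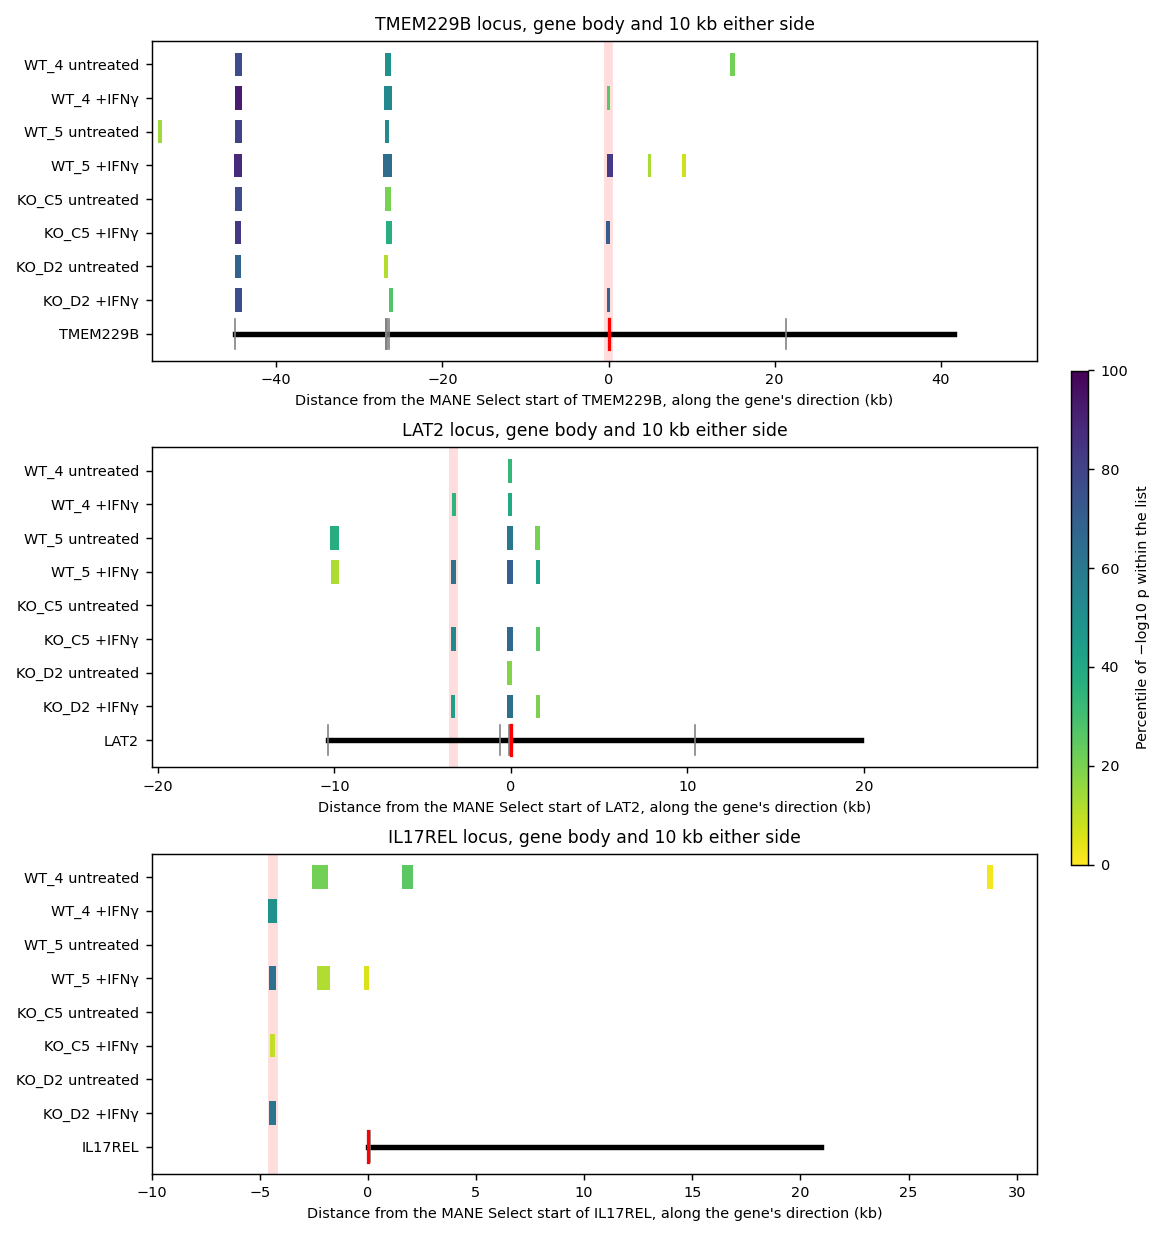
Peaks of the 8 libraries along the 3 loci, with distance from the MANE Select start in kb on the horizontal axis, positive in the direction of transcription. Each box is 1 peak at its place (the shortest are widened to be visible), darker for a higher percentile within its list, the black bar is the gene, grey ticks are annotated starts, the red tick is the MANE Select start, and the pink band is the gained region. At TMEM229B the gained peak stands between constant peaks upstream and a few single peaks, at LAT2 it stands beside the start, and at IL17REL it is the only region with a peak in more than 2 libraries.

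TMEM229B has annotated starts in 3 open regions, and both upstream regions had a peak in every library. The first, chr14:67532817-67533810, is the joined extent of the peaks of all libraries and holds the most upstream start of TMEM229B, at 67533739. Only the peak of WT_5 with IFNγ reached that start. The peaks of the other libraries ended at 67533732 or before it, and all summits lay from 67533063 to 67533108. The region also holds the start of PLEKHH1, a gene on the other strand, so its signal cannot be assigned to either gene. In untreated cells its percentile was 77.1 in WT_4, 80.4 in WT_5, 77.1 in KO_C5 and 68.6 in KO_D2. With IFNγ it was 91.9, 88.0, 84.2 and 76.0. The percentile was higher with IFNγ in 4 of 4 clones, by 9.27 points on average (85.0 ± 6.82 against 75.8 ± 5.05, SD, n = 4, two-sided exact permutation p = 0.114, adjusted p = 0.229 over 2 regions). Without KO_D2 with IFNγ the difference was 12.3 (exact permutation p = 0.0286, the smallest that test can give, not adjusted). With all lists cut to equal length it was 6.22 points (exact permutation p = 0.429). Fold enrichment was 33.2, 21.3, 21.9 and 17.7 in untreated WT_4, WT_5, KO_C5 and KO_D2, and 38.7, 36.1, 26.8 and 15.3 with IFNγ, higher in 3 of 4 clones (difference 5.71, exact permutation p = 0.4).

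The second, chr14:67514757-67515832, covers a cluster of 4 starts between the gained region and the most upstream start. In KO_D2 with IFNγ its only peak, chr14:67514757-67515063, covered none of these starts. The untreated and IFNγ values of a clone were taken at summits 434 to 571 bp apart, so they do not compare the same place. The percentile of the region was 49.5 in WT_4, 52.2 in WT_5, 20.7 in KO_C5 and 11.4 in KO_D2 without treatment, and 52.9, 64.7, 36.9 and 27.1 with IFNγ. The percentile was again higher in 4 of 4 clones, by 11.9 points on average (45.4 ± 16.7 against 33.4 ± 20.5, SD, n = 4, exact permutation p = 0.371, adjusted p = 0.371). Fold enrichment was 13.6, 10.2, 5.30 and 5.08 without treatment and 13.3, 13.8, 5.92 and 4.39 with IFNγ, higher in only 2 of 4 clones (difference 0.831, exact permutation p = 0.771). The lists of WT_5, KO_C5 and KO_D2 were longer with IFNγ (37533, 27457 and 24727 peaks against 29567, 19255 and 16730), which bears on a percentile, and at equal length this region no longer had a peak in all 8 libraries. By percentile, all 4 clones were higher at 15.9% of constant regions, and the median difference over constant regions was 2.48 points. Neither region passed the test.

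Both constant regions had higher values in the WT clones. With 2 clones a genotype, the two-sided exact permutation test over 6 assignments cannot give a p below 0.333. At the cluster of starts the 2 libraries of a clone had summits 434 to 571 bp apart, so their mean covers 2 places. The fold enrichment there, averaged over the 2 libraries of a clone, was 12.7 ± 1.04 for WT and 5.17 ± 0.618 for KO (SD of 2 clones each, exact permutation p = 0.333). At the region shared with PLEKHH1 it was 32.3 ± 5.15 and 20.4 ± 5.54 (SD of 2 clones each, exact permutation p = 0.333). In both, the WT and KO clones did not overlap, but 60.7% of all constant regions had a higher fold in both WT clones than in both KO clones, and the median difference was 9.14. The same order in percentile, which was seen at both regions (54.8 against 24.0, and 84.4 against 76.5), occurred at 29.1% of constant regions, with a median difference of 4.19 points. At the cluster of starts the local background was 1.28 and 1.95 fragments in untreated WT_4 and WT_5 but 3.15 and 2.74 in KO_C5 and KO_D2, and with IFNγ it was 1.47, 2.33, 5.93 and 7.20. The part of the background in the difference between genotypes was not tested.

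**Figure D3:**
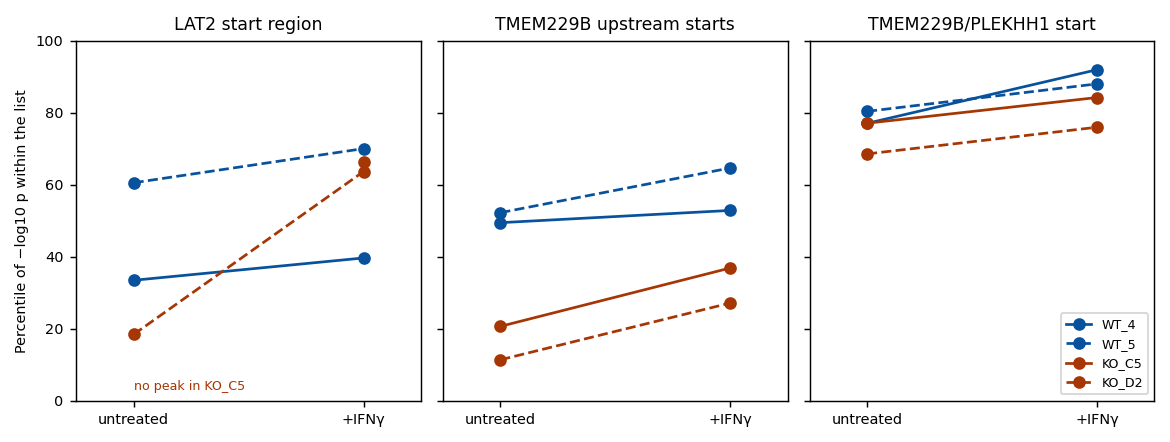
Percentile of −log10 p within the list (vertical axis, 0 to 100) in untreated and IFNγ libraries. The libraries of 1 clone are joined by a line, for the LAT2 start, the cluster of upstream TMEM229B starts and the region shared with PLEKHH1. Every line is higher at its IFNγ end by this measure, though the lists of WT_5, KO_C5 and KO_D2 are longer with IFNγ, which bears on a percentile. The point of KO_C5 at the LAT2 start has no untreated partner because no peak was called there.

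At the cluster of upstream starts the place of the summit differed with IFNγ. Positions here are counted from the start of the TMEM229B transcript at 67515429, positive into the gene. The untreated summits were at −11 bp in WT_4, −40 bp in WT_5, 14 bp in KO_C5 and −50 bp in KO_D2. With IFNγ they were at 423, 505, 503 and 521 bp. The distance between the summits of the same clone was thus 434, 545, 489 and 571 bp, and the nearest untreated and IFNγ summits lay 409 bp apart. Untreated and IFNγ summits were fully apart in 348 of 11551 constant regions (3.01%), and apart by at least 300 bp in 3 (0.0260%, or 0.0714% of the 4201 constant regions of at least 1000 bp). A single constant region of the series had a wider gap. In KO_D2 the untreated and the IFNγ peak shared 0 bases, while they shared 713, 321 and 600 bases in WT_4, WT_5 and KO_C5. This pattern was noticed in the data and is a description without a test.

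**Figure D4:**
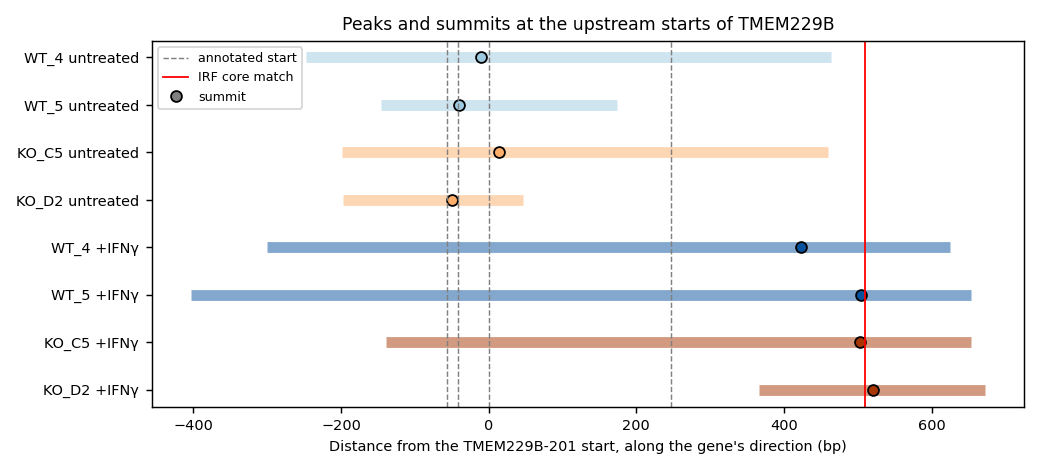
Peaks (bars) and summits (circles) of the 8 libraries at the cluster of upstream TMEM229B starts, with distance from the start at 67515429 in bp on the horizontal axis, positive into the gene. Untreated summits fall among the annotated starts (dashed lines), and IFNγ summits fall between 423 and 521 bp, near the IRF core match (red line).

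The IFNγ summits of this region lay 4.5 to 86.5 bp from an IRF core match, GAAACCGAAA at chr14:67514915-67514924, shown in capitals in the upstream sequence above and 509.5 bp into the gene. Summit pileup, not corrected for depth, was 30, 29, 21 and 18 fragments in untreated WT_4, WT_5, KO_C5 and KO_D2, and 32, 45, 40 and 35 with IFNγ. When windows of 150 bp either side of the summits replaced whole peaks, the region split into 1 gained part, chr14:67514758-67515156, and 1 lost part. The gained part held the IRF core match and none of the 4 starts.

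At the start of LAT2, chr7:74209783-74210148, a peak was called in 7 of 8 libraries. Fold enrichment without treatment was 7.79 in WT_4, 12.7 in WT_5 and 6.68 in KO_D2, with no peak in KO_C5. With IFNγ it was 9.86, 19.7, 17.1 and 12.6 in WT_4, WT_5, KO_C5 and KO_D2. Each clone with a pair of values was higher with IFNγ, by percentile as well (33.5, 60.6 and 18.4 against 39.7, 70.04 and 63.7). The lists of WT_5 and KO_D2 were longer with IFNγ, which bears on a percentile. In percentile and in pileup the change was largest in KO_D2, from 18 to 52 fragments at the summit. The library background of KO_D2 was also higher with IFNγ (1.08 against 0.626 fragments), and its part was not tested. An AP-1 match, TGATTCA at chr7:74209965-74209971, lay at this start. Further into the gene, chr7:74211370-74211675 had a peak in WT_5 without treatment (fold 5.60) and in WT_5, KO_C5 and KO_D2 with IFNγ (8.67, 6.86 and 5.56). A region near the first start of the long transcript, chr7:74199766-74200294, was seen in WT_5 alone, with a fold of 7.86 untreated and 4.62 with IFNγ.

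The start of IL17REL itself had only 1 weak peak, at chr22:50012697-50012938 in WT_5 with IFNγ (fold 3.86). Upstream, chr22:50014515-50015334 had a peak in untreated WT_4 (fold 6.19) and in WT_5 with IFNγ (4.74). Single peaks in untreated WT_4 lay in an intron at chr22:50010660-50011173 (6.78) and beyond the 3′ end of the gene at chr22:49983844-49984127 (3.77). In WT_4, KO_C5 and KO_D2 with IFNγ the gained region held the only peak of the locus. In WT_5 with IFNγ its fold of 15.5 was above the 3.86 and 4.74 named here. The gene was chosen for the strength of this region, so this is a description. The 4 single peaks of the TMEM229B locus were weak as well, with folds of 6.03 (untreated WT_4, chr14:67473523-67474056), 4.16 and 4.78 (WT_5 with IFNγ, chr14:67479558-67479769 and chr14:67483677-67483924) and 5.07 (untreated WT_5, chr14:67542646-67542866).

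Regions with the most similar pattern were found by the mean absolute difference in percentile over the 8 libraries, with a missing peak set to 0. For LAT2 they lay at or near SP100 (3.53 points), PTK2B (3.69) and ENSG00000230607 (3.90), and all 3 had peaks in the 4 IFNγ libraries alone. SP100 encodes a protein of nuclear bodies, and PTK2B a tyrosine kinase. For TMEM229B they were near MFSD12 (3.55 points), ENSG00000236231 (6.28) and OGFOD3 (6.34), of which MFSD12 and OGFOD3 also had a peak in 1 untreated library and ENSG00000236231 lacked one in 1 IFNγ library. For IL17REL they were near MCRIP1 (3.77 points), CD247 (5.73) and SHANK1 (6.43), of which CD247, the zeta chain of the T cell receptor, and SHANK1 lacked a peak in 1 IFNγ library. As these regions were found with the values that chose the 3 genes, this is a description.

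Among 30 genes of the IFNγ pathway and its known targets, 2 had a gained region in the gene body or within 10 kb, against 63 of 19970 protein-coding genes (0.315%). CIITA, the master regulator of MHC class II genes, had one at rank 40 of 66 with folds of 4.72 to 11.6. GBP5, a guanylate-binding protein induced by interferon, had one at rank 59 with folds of 4.72 to 6.83. By the definition of a gained region, the CIITA region, chr16:10878680-10879099, had a peak in both KO clones with IFNγ as well. Which of the promoters of CIITA it lies at was not examined. Of all protein-coding genes, 51.2% had a peak within 500 bp of a start in all 8 libraries and 27.8% in none. Such a peak was present in all 8 libraries for 14 of the 30 genes, among them IFNGR1, IFNGR2, JAK1, JAK2 and IRF1, and in no library for 5. Of 10 relatives of the 3 genes (TMEM229A, the adaptors LAT, LAX1, PAG1 and SIT1, and 5 interleukin 17 receptors), 0 had a gained region and 3 had a start peak in all 8 libraries. Of 7 signalling partners of LAT2, 0 had a gained region and 5 had a start peak in all 8 libraries. SYK, the kinase that acts with LAT2 in B cells, had no peak in the gene or within 10 kb.

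The labelled cell type was checked at the starts of marker genes. Of all protein-coding genes, 51.2% had a start peak in all 8 libraries and 27.8% in none. Of 6 osteoblast lineage genes, 2 to 5 had a start peak in each library, 2 in all 8 libraries and 1 in none. Such small counts do not identify the cell type. RUNX2, a transcription factor of bone formation, had one in all 8 libraries, and COL1A2, a collagen gene, in none. Of 8 blood cell genes, 0 to 3 had a start peak, 0 in all 8 libraries, and 5 in none, the leukocyte marker PTPRC and the B cell gene CD79B among these.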

How the data were processed

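FAIRE-seq was performed by the authors in 4 U2OS clones without and with IFNγ. Per the submitters' processing notes and the methods, reads were trimmed with Trimmomatic, aligned to GRCh38 with Bowtie2 2.2.5, filtered with SAMtools 1.14, and peaks were called for each library with MACS2 2.2.7.1. The deposited lists precede the study's step on reproducibility. Whether an input control was used and how duplicates were handled is not given in the sources used here. The deposited fold enrichment is the ratio of summit pileup to local background defined above, with the same constant added to both. The deposited −log10 p and −log10 q were written by MACS2 too. The deposited score and summit offset are further columns of these lists, of which the score was not used.

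Peaks on chromosomes 1 to 22 and X were used, and 704 peaks on other sequences were left out. Peaks of different libraries sharing 1 bp or more formed regions, which were annotated with GENCODE 44. Gained regions had a peak in all 4 IFNγ and 0 untreated libraries, and constant regions in all 8. Percentile is the share of peaks in a list with a −log10 p at or below that of the peak. Pileup was recovered from the fold and −log10 p of each peak by the Poisson model of MACS2, and 97.2% to 99.6% of sampled peaks per library gave a whole number within 0.005. The library background was 0.621 to 1.08 fragments. This stands in for depth, which the lists do not give directly.

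Treatment was tested at constant regions over 70 assignments of the libraries, and genotype at the same regions over 6 assignments of the clones (two-sided exact permutation tests, Python 3.11.15, numpy 2.4.6). Clones of a genotype are the replicates of the genotype test, so its p-values measure the spread between clones. The treatment test shuffled all 8 libraries, so its p-values also mix genotypes and leave out the pairing of libraries. By the labels, both libraries of a clone form a pair, while a shared replicate number does not link WT to KO clones. The joining of peaks was checked with simulated data. The genes, gene lists and tests were chosen with earlier results of these data known, and the comparison of summit positions after seeing them. The genotype test planned for the gained regions is not reported, as their choice used the same values. The named genes are the 3 genes, genes in their windows, the 3 most similar regions of each, and the gene lists.

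The alternatives were stricter lists (−log10 q from 3 up, or fold from 4 up), lists of equal length, an overlap of 0.5 of the shorter peak, summit windows, other distances from the gene, other measures, a block for the clone, and leaving out each library.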

Additional observations from a re-analysis of the deposited data

How the results depend on the processing

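The 3 gained regions met their definition with stricter lists (−log10 q from 3 up, or fold from 4 up), an overlap of 0.5 and summit windows. They must meet it with a library left out, since fewer libraries are then asked for, so that setting shows nothing about them. With lists of equal length 2 did, since IL17REL lost its peak in KO_C5 with IFNγ. Equal length left 7 regions in the 3 loci, 1 constant region and 22 gained regions in the series, against 16, 2 and 66. A distance of 25 kb gave 30 regions, and summit windows 1 constant region. Without 1 library the gained regions of the series numbered 82 to 604, the most without WT_4 with IFNγ and 290 without untreated WT_5, where the definition asks for fewer libraries, and the constant regions of the loci 2 or 3. IFNγ minus untreated at the region shared with PLEKHH1 ranged from 6.86 to 12.3 points without 1 library, and at the cluster of starts from 4.60 to 18.2. With the clone as a block, where untreated and IFNγ libraries are paired, the differences were 9.27 and 11.9 points (exact sign-flip p = 0.125 for each, the smallest that 4 clones allow), which changed no call. In fold enrichment they were 5.71 and 0.831, and at equal length the first was 6.22 points, none past the threshold.

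WT minus KO at the gained regions reversed with other measures. At TMEM229B it was −14.5 percentile points, −23.5 fragments and −6.46 in fold without WT_5. At LAT2 it was −0.663 points, −10 fragments, −0.522 in fold without KO_D2 and −1.31 without WT_5. At IL17REL it was −4 fragments. Without 1 library the fold difference ran from −6.46 to 19.3 at TMEM229B, from −1.31 to 3.66 at LAT2 and from 3.70 to 10.0 at IL17REL. The cause was not tested, and pileup is not corrected for depth. Depth is known only through the background, so a peak missing from a list may lie just under its threshold.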
